A study of Mus musculus with 15 samples.

Results

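The genes described here are 10 markers of macrophages, Ptprc, Cd68, Csf1r, C1qa, C1qb, C1qc, Cx3cr1, Aif1, Mrc1 and Lyz2, measured by RNA-seq of whole mouse pituitary glands. They were found in the count table by symbol, each in 1 row, as 10 of its 55523 rows. The table held 15 libraries of mice with a deletion of the pituitary enhancer (PE) that drives Nr5a1, which encodes a nuclear receptor made there in gonadotropes, the cells that secrete luteinizing and follicle-stimulating hormones. Every animal carried the deletion: PE+/− mice lacked the enhancer on 1 chromosome and served as the controls, and PE−/− mice lacked it on both. There were 4 libraries of PE+/− males, 4 of PE−/− males, 4 of PE+/− females and 3 of PE−/− females. The deletion was made in fertilized eggs by genome editing and is present in every cell of the animal. The labels give neither the age nor the strain of the mice, and they do not say whether each library came from 1 animal, so that p-values measure the spread between these libraries.

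Macrophages are resident phagocytes of almost every organ. In the pituitary they lie between the hormone cells and along the capillaries, and the posterior lobe holds cells of the microglial kind, the macrophages of the nervous system. They clear dying cells, make complement and present antigen, and they depend on signalling through the CSF1 receptor for survival. Gonadotropes and macrophages are different lineages, and the comparisons asked whether the transcripts that mark macrophages stood at other levels in glands whose gonadotropes had lost the enhancer, and in the glands of the other sex.

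None of the 10 genes passed an adjusted p of 0.05 in any comparison with edgeR's quasi-likelihood test, whether PE−/− was compared with PE+/− in males or in females, the sexes were compared within a genotype, or the interaction of genotype and sex was tested. Over all genes, 0.132%, 1.05%, 0.67%, 0.0494% and 0.161% passed in these 5 comparisons (the genotypes in males and in females, the sexes in PE+/− and then PE−/−, and the interaction). An unadjusted p under 0.05 was given to 0, 1, 1, 2 and 2 of the macrophage genes, in the same order, and to 6.14%, 16.1%, 13.5%, 3.37% and 10.1% of all genes. The smallest adjusted p belonged to a lower level of Csf1r, the receptor for the growth factor CSF1, in PE+/− females than in PE+/− males (log2 fold change −0.69, adjusted p = 0.128), followed by a lower level of Lyz2, which encodes lysozyme, in PE−/− than in PE+/− females (−0.59, adjusted p = 0.183). DESeq2 called 1 of these values, Csf1r between the sexes in PE+/−, where it called 902 genes in all, and 0 in the other 4 comparisons. All 10 genes together took 279 ± 32.0 CPM (counts scaled to a common library size) in PE+/− males (SD, n = 4), 268 ± 30.2 in PE−/− males (n = 4), 285 ± 36.5 in PE+/− females (n = 4) and 229 ± 9.66 in PE−/− females (n = 3). These sums mostly reflect the abundant genes: C1qa, C1qb and C1qc alone took 157, 166, 162 and 134 CPM in the same order. Between the genotypes in females, 8 of the 10 genes were lower in PE−/− and 2 (Csf1r and Mrc1) higher. In bulk RNA, fewer cells of a type and less RNA per cell cannot be told apart.

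Library totals ran from 12982794 to 30238443 estimated counts, and about 4 counts stood for 1 sequenced fragment, so 12 counts (3 fragments) were taken as the floor of detection. Nr5a1 itself held 431 to 1138 counts in the PE+/− libraries and 0 to 29 in the PE−/− libraries, in the order of the genotype labels. Mitochondrial genes took 1.84% to 6.55% of a library, with the highest shares in replicates 2 and 3 of the PE+/− females. Of the 10 genes, 8 were above the floor in all 15 libraries, Mrc1 was above it in 13, and Aif1 was at 0 in 9 of the 15. Detection alone does not show that the genes mark the same cells. Within groups their levels did not move together as a set (median pairwise Pearson r −0.023), though 6 of the 45 pairs had an r above 0.5. Counting error can weaken r for the genes with few counts, and its part was not tested. Lyz2 is also a gene of neutrophils, whose 6 listed genes summed to 0 to 2.16 CPM in a library: S100a8, S100a9 and Ly6g were at 0 in all 15, Csf3r had group means of 0.712 to 0.932 CPM, and Retnlg and Cxcr2 were above 0 in some libraries. Their part in the level of Lyz2 was not tested. Cx3cr1 stood apart in 1 library, replicate 3 of the PE−/− males, which held 21 counts where the other 14 held 465 to 1013.

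Per kb of the longest coding transcript, the C1q genes and Lyz2 were the most abundant. C1qb held 66.4 CPM per kb over the 15 libraries, C1qc 43.98, Lyz2 42.05 and C1qa 29.9. The receptors and the lysosomal membrane protein came next, with 7.23 CPM per kb for Cx3cr1, 5.57 for Cd68 and 2.47 for Csf1r. Aif1 (0.764), Ptprc (0.549) and Mrc1 (0.342) were lowest. The counting error of a single library, from the number of fragments, was 5.33% for C1qb, 26.8% for Ptprc, 33.0% for Mrc1 and 57.4% for Aif1, so that only the higher genes could show small differences.

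**Figure D1:**
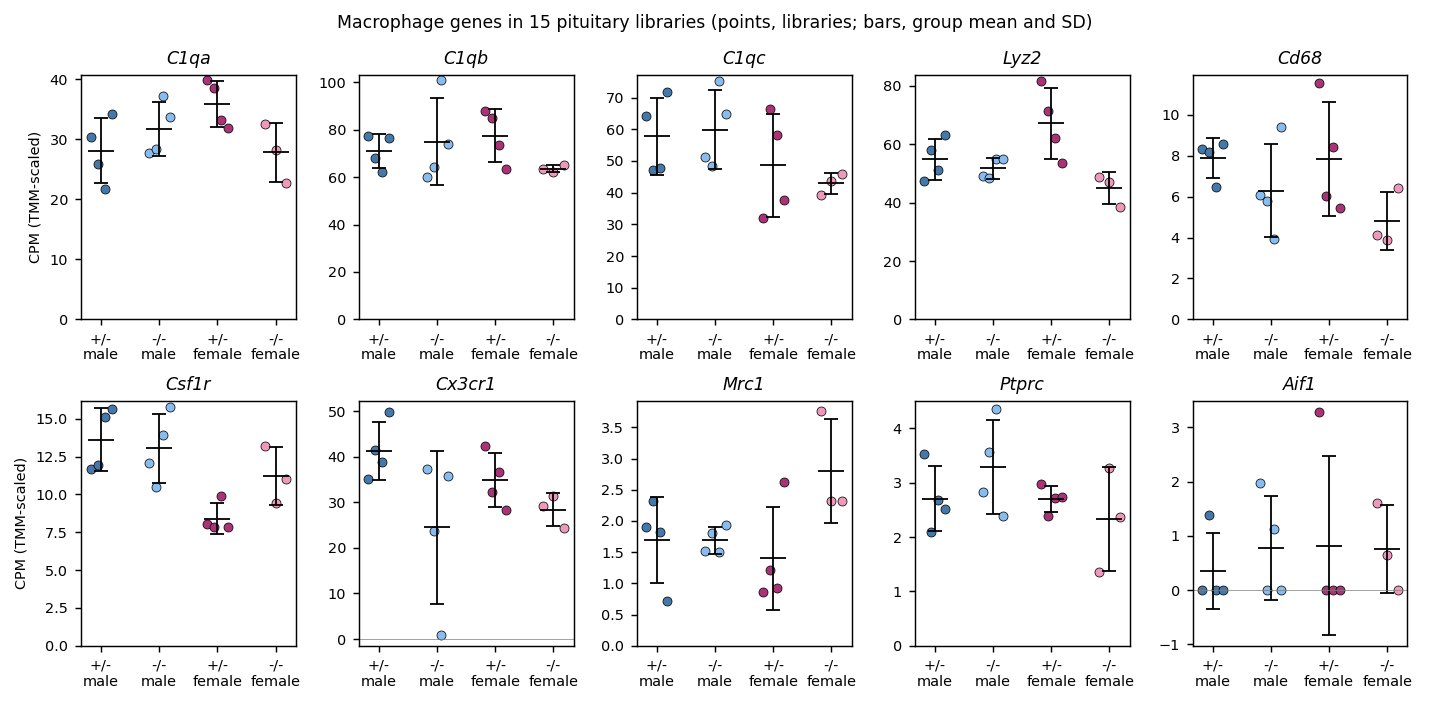
Level of each of the 10 macrophage genes in CPM (counts on TMM-scaled library sizes) in every library, by genotype and sex, with the group mean and SD as bars (n = 4, 4, 4 and 3). The groups overlapped for most genes; the lone low point of Cx3cr1 at 0.984 CPM is replicate 3 of the PE−/− males, and most Aif1 points lie at 0.

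C1qa, C1qb and C1qc encode the chains of C1q, the recognition molecule of the classical complement pathway, which tissue macrophages make in large amounts. The genes lie side by side on the minus strand of chromosome 4 of mm10 (GENCODE M21), C1qb at 136880129 to 136886187, C1qc at 136889804 to 136893065 and C1qa at 136895917 to 136898803. The RefSeq promoter table (GRCm38.p6, the same build as mm10) matched 8 of the 10 genes (not C1qa and Csf1r). Of these 8, 6 (Ptprc, Mrc1, C1qb, C1qc, Cd68 and Aif1) had the letters GAGGAA on either strand between 250 bases before and 50 bases after the start. Counted by promoter, 6 of the 9 promoters of these 8 genes had the letters, as did 28.3% of all 32851 promoters of that length. GAGGAA is the core of the PU box, to which PU.1 (Spi1), a transcription factor of the macrophage lineage, binds, and a match of letters is not a binding site. The longer GAGGAAGT, which contains it, was in C1qc alone of the 8 genes (1 of the 9 promoters) and in 3.2% of all promoters. C1qb and C1qc are shown because they lie beside C1qa and were among the most abundant members, and Lyz2 because it was as abundant without a match. Only bases before the first annotated start are shown, 5′ to 3′ on the strand of the gene, with matches to GAGGAA in capitals, which read TTCCTC where the match is on the opposite strand.
C1qb (chr4:136886201-136886450, minus strand): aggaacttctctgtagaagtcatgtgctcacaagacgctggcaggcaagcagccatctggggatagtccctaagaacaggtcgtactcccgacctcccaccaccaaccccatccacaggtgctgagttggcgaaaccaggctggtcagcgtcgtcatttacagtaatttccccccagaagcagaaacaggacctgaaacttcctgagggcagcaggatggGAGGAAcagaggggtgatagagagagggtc
C1qc (chr4:136893066-136893164, minus strand): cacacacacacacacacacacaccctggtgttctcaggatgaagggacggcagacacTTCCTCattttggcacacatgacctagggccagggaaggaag
Lyz2 (chr10:117282322-117282522, minus strand): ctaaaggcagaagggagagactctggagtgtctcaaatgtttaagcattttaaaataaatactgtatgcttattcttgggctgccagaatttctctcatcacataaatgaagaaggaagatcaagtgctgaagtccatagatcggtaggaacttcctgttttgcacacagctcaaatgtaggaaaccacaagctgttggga
The match lay 30 bases before the start of C1qb, on the strand of the gene, and 193 bases before that of C1qc, on the opposite strand, both counted from the RefSeq start, which for C1qc lies downstream of the first annotated start at which its sequence above ends.

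The C1q genes did not differ between genotypes beyond the spread of the libraries. C1qb stood at 77.3, 67.9, 62.3 and 76.6 CPM in PE+/− males (replicates 1 to 4) and at 59.9, 64.5, 101 and 74 CPM in PE−/− males. Among females it stood at 87.8, 85.1, 73.7 and 63.2 CPM in PE+/− and at 63.3, 62.3 and 65 CPM in PE−/−. The groups overlapped, replicate 3 of the PE−/− males was the highest of all, and the 3 PE−/− females lay close together at the low end. The log2 fold change of C1qb between genotypes was 0.074 in males (SE 0.18, 95% interval −0.34 to 0.49, adjusted p = 0.988) and −0.29 in females (SE 0.15, −0.65 to 0.066, adjusted p = 0.41).

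In PE+/− males the level of C1qa was 30.4, 25.9, 21.7 and 34.2 CPM, and in PE−/− males 27.7, 28.3, 37.2 and 33.7 CPM. The PE+/− females had 39.9, 38.5, 33.3 and 31.9 CPM and the PE−/− females 32.5, 28.1 and 22.7 CPM. PE+/− females had the highest group mean of C1qa (35.9 ± 3.90 CPM, against 28.05 ± 5.42 in PE+/− males), and the lowest, 27.8 ± 4.92 CPM, was that of PE−/− females, yet every pair of groups overlapped. The genotype difference of C1qa was 0.18 on the log2 scale in males (95% interval −0.23 to 0.59, adjusted p = 0.973) and −0.38 in females (−0.79 to 0.035, adjusted p = 0.355). The difference between these differences, the interaction, was −0.54 (SE 0.25, unadjusted p = 0.0455 by the quasi-likelihood F test of edgeR, adjusted p = 0.481). An unadjusted p under 0.05 was given to 10.1% of all genes in that fit.

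Male libraries held 64.1, 47.3, 47.9 and 71.8 CPM of C1qc in PE+/− and 51.4, 48.3, 75.1 and 64.7 CPM in PE−/−. Female libraries held 32, 66.3, 58.3 and 37.8 CPM in PE+/− and 39.2, 43.6 and 45.8 CPM in PE−/−. C1qc varied most among the PE+/− females, where replicates 1 and 4 were low and replicates 2 and 3 high, the latter being the libraries with the largest mitochondrial share, whose part in the level was not tested. In PE−/− mice every female lay below every male, with a log2 fold change of −0.48 (SE 0.18, 95% interval −0.90 to −0.056, unadjusted p = 0.0313 by edgeR, adjusted p = 0.997). Between genotypes C1qc differed by 0.050 in males (adjusted p = 0.99) and −0.19 in females (adjusted p = 0.813). As a description without a test, the level per kb of C1qc was 1.78 ± 0.142 times that of C1qa in PE+/− males (n = 4) and 1.18 ± 0.395 times in PE+/− females (n = 4), whereas C1qb was 2.46 ± 0.248 and 2.06 ± 0.108 times C1qa in these groups.

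Lyz2 encodes lysozyme, which cleaves bacterial cell walls. Lyz2 stood at 47.4, 57.9, 51.2 and 63.2 CPM in PE+/− males (replicates 1 to 4) and at 49.1, 48.3, 55 and 55 CPM in PE−/− males. Among females it stood at 81.8, 71.3, 62.1 and 53.5 CPM in PE+/− and at 48.9, 47.1 and 38.6 CPM in PE−/−. Males of both genotypes lay within a narrow band, PE+/− females reached the highest values, and each PE−/− female lay below each PE+/− female. Lyz2 was 67.1 ± 12.2 CPM in PE+/− females (n = 4) and 44.9 ± 5.49 in PE−/− females (n = 3), a log2 fold change of −0.59 (SE 0.19, 95% interval −1.03 to −0.15, unadjusted p = 0.0157 by edgeR, adjusted p = 0.183). The adjusted p ran from 0.0634 to 0.454 over 17 alternative settings, and the sign was negative in all 17. In males the log2 fold change was −0.084 (SE 0.13, 95% interval −0.38 to 0.21, adjusted p = 0.987), and the interaction was −0.50 (unadjusted p = 0.0379 by edgeR, adjusted p = 0.452). Lyz1, a close copy of Lyz2 on which reads could be misplaced, held 0 to 15 counts in a library.

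Cd68 encodes a glycoprotein of the lysosome membrane of phagocytes. In PE+/− males the level of Cd68 was 8.32, 8.21, 6.46 and 8.6 CPM, and in PE−/− males 6.07, 5.78, 3.94 and 9.39 CPM. The PE+/− females had 11.6, 6.03, 8.44 and 5.43 CPM and the PE−/− females 4.14, 3.87 and 6.44 CPM. The lowest value of each sex came from a PE−/− library, the highest among males did too, and the groups overlapped. The log2 fold change between genotypes was −0.33 in males (SE 0.26, 95% interval −0.93 to 0.27, adjusted p = 0.972) and −0.72 in females (SE 0.34, −1.51 to 0.077, adjusted p = 0.362). Between the sexes it was 0.00097 in PE+/− (adjusted p = 1) and −0.38 in PE−/− (adjusted p = 0.997).

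Csf1r encodes the receptor for CSF1 and interleukin-34. Male libraries held 11.7, 12, 15.1 and 15.7 CPM of Csf1r in PE+/− and 12, 10.5, 13.9 and 15.8 CPM in PE−/−. Female libraries held 8.05, 7.83, 9.91 and 7.81 CPM in PE+/− and 13.2, 9.44 and 11 CPM in PE−/−. All 4 PE+/− females lay below all 4 PE+/− males, and the PE−/− females overlapped both. Csf1r was 8.40 ± 1.01 CPM in PE+/− females against 13.6 ± 2.07 in PE+/− males, a log2 fold change of −0.69 (SE 0.17, 95% interval −1.08 to −0.30, unadjusted p = 0.00329 by edgeR, adjusted p = 0.128). DESeq2 gave −0.70 with an adjusted p of 0.00867, a fit of edgeR on all 15 libraries gave an adjusted p of 0.0529, and leaving out any 1 library gave values from −0.78 to −0.62. In PE−/− the difference of the sexes was −0.22 (adjusted p = 0.997), and the difference of the genotypes was −0.062 in males (adjusted p = 0.988) and 0.41 in females (SE 0.18, −0.023 to 0.84, adjusted p = 0.339). The interaction, 0.48, had an adjusted p of 0.564. Exons of Csf1r share 873 bases with Hmgxb3 on the opposite strand, whose mean was 24.9 ± 5.74 CPM in PE+/− males and 20.3 ± 8.57 in PE+/− females, so that the sum of both genes was 38.5 ± 7.17 and 28.7 ± 9.35 CPM. How reads of the shared bases were assigned was not tested.

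Cx3cr1 encodes the receptor for fractalkine (CX3CL1). Cx3cr1 stood at 35, 41.5, 38.7 and 49.8 CPM in PE+/− males (replicates 1 to 4) and at 37.3, 23.8, 0.984 and 35.9 CPM in PE−/− males. Among females it stood at 42.3, 32.2, 36.6 and 28.4 CPM in PE+/− and at 29.3, 31.3 and 24.4 CPM in PE−/−. Apart from the single low PE−/− male the libraries lay within one range. That library held Cx3cr1 at 3.05% of the mean of the other 3 PE−/− males, while the other 8 genes tested in males stood there at 55.6% (Cd68) to 153% (C1qb) of that mean. The mean of PE−/− males was 24.5 ± 16.8 CPM (n = 4) with it and 32.3 ± 7.41 (n = 3) without it, against 41.3 ± 6.27 in PE+/− males. The log2 fold change in males was −0.76 (SE 0.77, 95% interval −2.53 to 1.01, adjusted p = 0.973) and −0.36 without that library (adjusted p = 0.999). In PE−/− the difference of the sexes was 0.22 with the library and −0.19 without it. In females the genotypes differed by −0.31 (SE 0.19, −0.74 to 0.13, adjusted p = 0.486). The annotated span of Cx3cr1 (chromosome 9, 119901616 to 120069879) overlaps 9 other genes, with 78 exon bases shared with Gm33858, and how assembled transcripts were assigned to genes there was not tested.

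Mrc1 encodes the mannose receptor CD206, a marker of macrophages along vessels and at tissue borders. In PE+/− males the level of Mrc1 was 1.9, 2.32, 1.83 and 0.711 CPM, and in PE−/− males 1.52, 1.8, 1.5 and 1.94 CPM. The PE+/− females had 0.86, 1.22, 0.926 and 2.62 CPM and the PE−/− females 3.77, 2.32 and 2.32 CPM. These levels rested on 11 to 75 counts in a library, with 2 libraries at or under the floor. PE−/− females had the highest mean, 2.803 ± 0.836 CPM (n = 3), against 1.41 ± 0.827 in PE+/− females (n = 4), but replicate 4 of the latter lay among them. The log2 fold change was 0.98 in females (SE 0.46, 95% interval −0.11 to 2.07, adjusted p = 0.362) and −0.0077 in males (SE 0.37, −0.86 to 0.84, adjusted p = 1). Within PE−/− each female was above each male (0.73, SE 0.27, 0.087 to 1.36, unadjusted p = 0.031 by edgeR, adjusted p = 0.997).

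Ptprc encodes CD45, a phosphatase on all leukocytes. Male libraries held 3.52, 2.09, 2.68 and 2.52 CPM of Ptprc in PE+/− and 2.83, 3.56, 4.36 and 2.39 CPM in PE−/−. Female libraries held 2.97, 2.39, 2.72 and 2.75 CPM in PE+/− and 1.36, 3.28 and 2.37 CPM in PE−/−. The groups overlapped throughout, with 22 to 106 counts in a library. The log2 fold change between genotypes was 0.28 in males (SE 0.27, 95% interval −0.34 to 0.91, adjusted p = 0.972) and −0.21 in females (SE 0.34, −0.99 to 0.58, adjusted p = 0.839). Aif1, which encodes the actin-binding protein IBA1, was listed at 0 in 3 PE+/− males, 2 PE−/− males, 3 PE+/− females and 1 PE−/− female. It held 30 counts in replicate 2 of the PE+/− males, 39 and 24 in replicates 1 and 3 of the PE−/− males, 42 in replicate 1 of the PE+/− females, and 26 and 21 in replicates 1 and 2 of the PE−/− females. The zeros did not follow library totals alone. Replicate 1 of the PE+/− females, with the lowest total (12982794), held 42 counts, and replicate 2 of the PE−/− males (25391417) held 0. The cause of the zeros was not tested. No difference of Aif1 could be shown from such values, and the 95% interval of its genotype difference in females ran from −4.92 to 4.70.

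**Figure D2:**
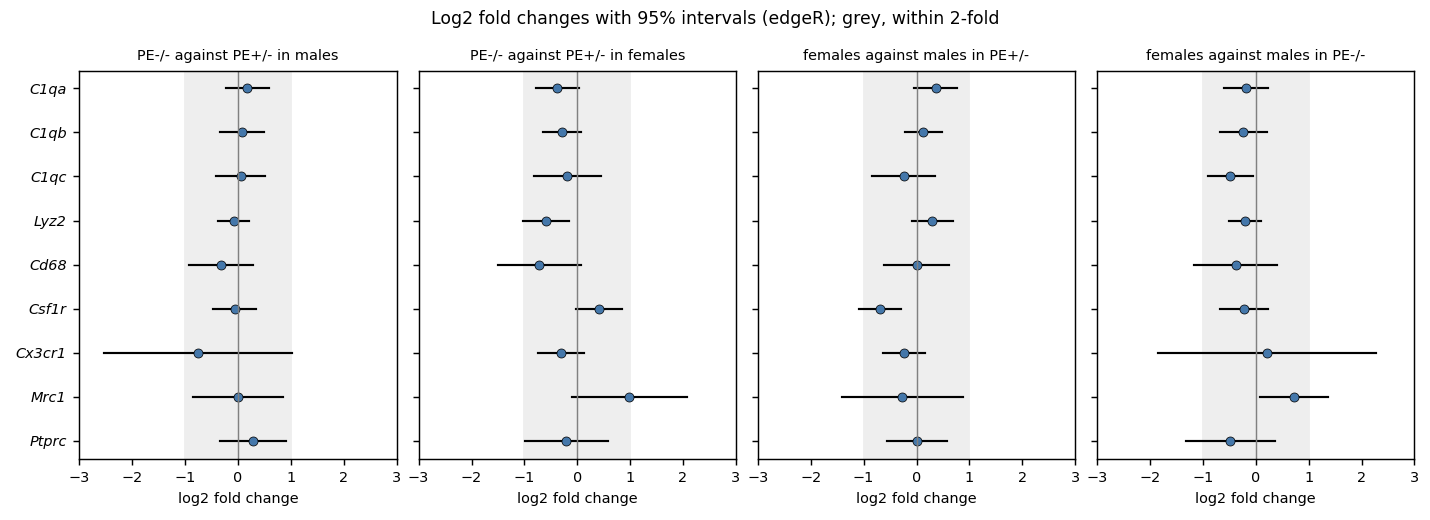
Log2 fold changes (points) with 95% intervals (lines) from edgeR for 9 macrophage genes in the 4 comparisons, with the range within 2-fold in grey; Aif1, tested in 2 of them, is left out. Most points lie within the grey band, the intervals of Csf1r (females against males in PE+/−) and Lyz2 (PE−/− against PE+/− in females) exclude 0, as do those of C1qc and Mrc1 in the last panel, and the intervals of Cx3cr1 with PE−/− males are the widest.

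Over the genes as a group, PE−/− males were compared with PE+/− males for 9 of the 10 genes (all but Aif1), of which 4 were higher (50.4% of all genes were) and 5 lower, with 0 past the threshold against a background of 0.132% of 17392 genes. The median log2 fold change was −0.008, and over all genes it was 0.003. In males no gene had groups that did not overlap, where 4.56% of all genes did, and 0 of the 9 had an unadjusted p under 0.05, against 6.14%. For 8 of the 9 the 95% interval lay within 2-fold in either direction, Cx3cr1 being the exception. DESeq2, which called 206 genes in males, called none of the 9.

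In females 2 of the 10 genes were higher in PE−/− (Csf1r and Mrc1, where 50.2% of all genes were higher) and 8 lower. Their median on the log2 scale was −0.25, beside 0.002 over all genes. None passed the threshold, against a background of 1.05% of 18085 genes. Lyz2 alone had an unadjusted p under 0.05, as did 16.1% of all genes, and it alone had groups that did not overlap, as did 18.6%. The 95% interval lay within 2-fold for 6 of the 10. DESeq2 called 1431 genes and none of the 10. Without Cx3cr1, the summed level of the other 9 genes was 250.3 ± 32.6 CPM in PE+/− and 201 ± 6.91 in PE−/− females, and 238 ± 27.6 and 243 ± 39.4 CPM in PE+/− and PE−/− males.

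Between the sexes in PE+/−, 5 of 9 tested genes were higher in females (48.8% of all genes were) and 4 lower, with a median of 0.001 beside −0.01 over all genes. None passed the threshold, against 0.67% of 17163 genes. Csf1r alone had an unadjusted p under 0.05 (13.5% of all genes) and groups that did not overlap (9.75%). Between the sexes in PE−/−, 2 of 10 were higher in females (49.7% of all genes were) and 8 lower, with a median of −0.212 beside −0.002. None passed the threshold, against 0.0494% of 18217 genes, and C1qc and Mrc1 had an unadjusted p under 0.05 (3.37% of all genes) and groups that did not overlap (5.24%). Both comparisons of the sexes use libraries that the comparisons of the genotypes also use, and the values of a gene in them are therefore not independent. In the interaction, 3 genes were above 0 (49.6% of all genes were) and 7 below, with 0 past the threshold against 0.161% of 19286 genes and 2 (C1qa and Lyz2) with an unadjusted p under 0.05.

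The other lists of macrophage genes held no gene past the threshold. General macrophage genes, microglial genes, genes of border macrophages and genes of monocytes made 41 genes in 4 lists, of which 32 were tested in males (19 higher in PE−/−, 13 lower, 0 past the threshold) and 36 in females (15 higher, 21 lower, 0 past the threshold). Between the sexes 34 were tested in each genotype, with 17 higher in females and 17 lower in PE+/−, 9 higher and 25 lower in PE−/−, and 0 past the threshold in both. Over all genes, 0.132% and 1.05% passed between genotypes in males and females, and 50.4% and 50.2% were higher in PE−/−. Between the sexes, 0.67% and 0.0494% passed in PE+/− and PE−/−, and 48.8% and 49.7% were higher in females. With shares this small, 0 calls among so few genes do not set these lists apart. The same shares stand beside the counts of the lists below. Ctss, a lysosomal protease and the general macrophage gene with the most counts, held 42.6 ± 6.86 CPM in PE+/− males, 42.9 ± 5.62 in PE−/− males, 36.2 ± 8.68 in PE+/− females and 37.97 ± 7.37 in PE−/− females. The border macrophage list summed to 9.18 to 11.95 CPM as group means, and its genes Folr2 and Timd4 were at 0 in every library. Ccr2, the chemokine receptor of monocytes, had 2.82 ± 0.473 CPM in PE+/− and 5.46 ± 1.01 in PE−/− males (log2 fold change 0.95, adjusted p = 0.314), and 3.31 ± 1.04 and 5.36 ± 2.22 CPM in PE+/− and PE−/− females (0.70, adjusted p = 0.413).

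Of the 7 microglial genes, 6 were lower in females than in males in PE+/− (median log2 fold change −0.682) and 6 in PE−/− (median −0.811), and 0 passed the threshold in either. P2ry12, the ADP receptor that homeostatic microglia carry, had 8.69 ± 3.60 CPM in PE+/− males and 4.22 ± 1.31 in PE+/− females (log2 fold change −1.04, adjusted p = 0.253), and 6.08 ± 4.58 and 2.46 ± 0.904 CPM in PE−/− males and females (−1.29, adjusted p = 0.997). P2ry13, Siglech and Gpr34 had log2 fold changes of −1.32, −1.44 and −0.68 in PE+/−, with adjusted p from 0.186 to 0.54. The share of posterior lobe in each gland was not measured.

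Antigen presentation by MHC class II, which macrophages share with dendritic and B cells, was measured by 7 genes. In PE−/− males 6 of 7 were higher than in PE+/− males (median log2 fold change 0.451) and in females 5 of 7 (0.25), with 0 past the threshold. H2-DMa was lower in PE−/− males (−0.38, adjusted p = 0.878 by edgeR) and in PE−/− females (−0.68, adjusted p = 0.26). H2-Eb1 was also lower in PE−/− females (−0.36, adjusted p = 0.739 by edgeR). H2-Aa held 50.97 ± 12.1 CPM in PE+/− males and 77.6 ± 6.002 in PE−/− males (0.61, adjusted p = 0.52), and 71.4 ± 13.4 and 89.55 ± 1.02 in PE+/− and PE−/− females (0.32, adjusted p = 0.42). H2-Ab1 had the most counts of the list, with means of 116, 186, 171 and 204.5 CPM in PE+/− males, PE−/− males, PE+/− females and PE−/− females. Cd74, the invariant chain, ranged from 11.6 to 96.5 CPM among males and from 0 to 129 CPM among females. Dendritic cell genes summed to 6.03 and 9.015 CPM and B cell genes to 21.55 and 32.2 CPM in PE+/− and PE−/− males. In PE+/− and PE−/− females the sums were 7.43 and 8.03 CPM for dendritic cell genes and 18.1 and 31.5 CPM for B cell genes. The part of these cells in the levels of the MHC class II genes was not tested.

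Among ligands of these receptors, Cx3cl1 held 8.58 to 559.6 CPM in PE+/− males, so that its libraries differed by far more than the groups, and Csf1 had 19.4 ± 6.14 CPM in PE+/− males. None of the 4 ligands tested passed the threshold in any comparison. Of the 15 other complement genes, 11 were tested in males (6 higher, 5 lower) and 12 in females (5 higher, 7 lower), with 0 past the threshold. The phagocytosis list had 0 calls among 11 tested in males and 10 in females, and the inflammatory list 0 among 4 in each sex, with Tnf, Il6 and Il10 at 0 in every library. As examples of level in PE+/− and PE−/− males, Cd59a, a complement inhibitor, had 104 and 90.1 CPM, Ctsb, a lysosomal protease of many cells, 1357 and 1454 CPM, and Nfkbia, an inhibitor of NF-κB, 71.4 and 71.99 CPM. Interferon-induced genes were higher in PE−/− for 6 of 7 in males (median 0.572) and 7 of 7 in females (0.503), again with 0 past the threshold.

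**Figure D3:**
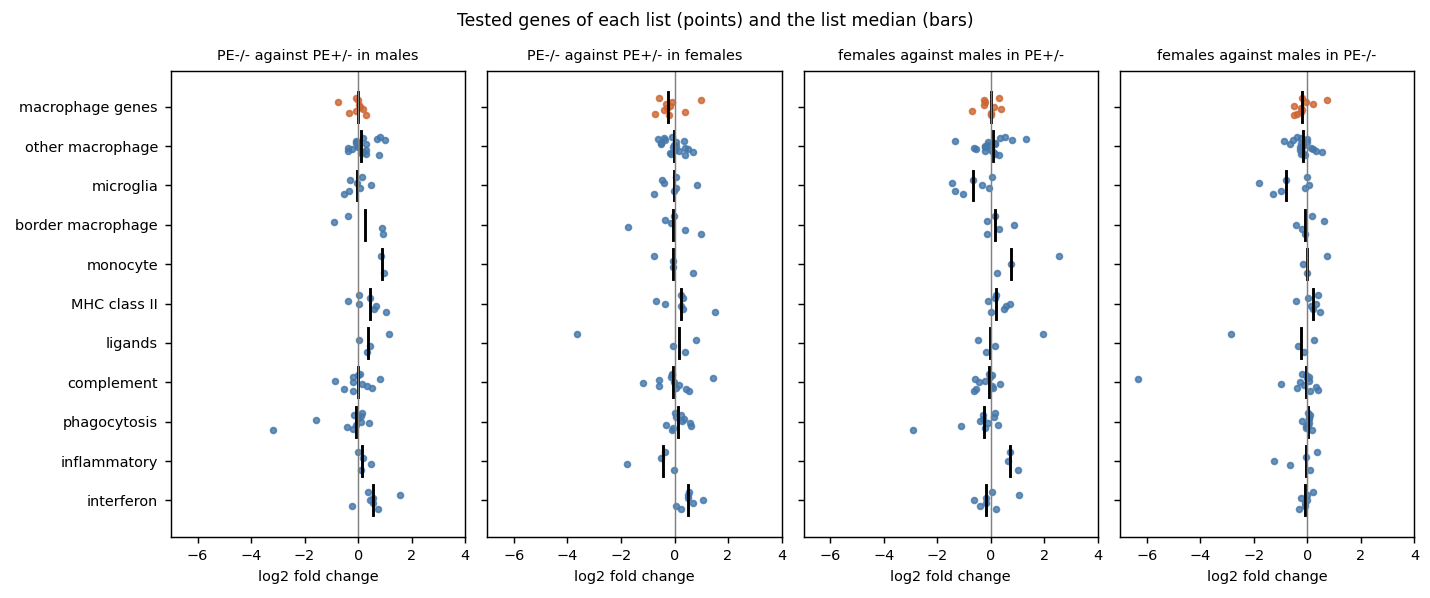
Log2 fold changes (points, 1 per tested gene) and list medians (bars) of the 10 macrophage genes, in orange, and of 10 related lists, in blue, in the 4 comparisons. The medians of the macrophage genes lie between −0.25 and 0.001, and the microglial medians between the sexes lie at −0.682 and −0.811.

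Within groups, the 10 genes did not move as a unit. Counting error, largest for Aif1 (57.4%), Mrc1 (33.0%) and Ptprc (26.8%), can weaken r in pairs with these genes, and its part was not tested. After removing group means from log2 CPM, 20 of the 45 pairs had a Pearson r above 0 over the 15 libraries, 6 had one above 0.5, and the median was −0.023, as a description of libraries that share depth and scaling. The most alike were C1qa and C1qb (0.722), C1qa and Lyz2 (0.685), Cd68 and Cx3cr1 (0.558), Aif1 and Lyz2 (0.548), C1qb and Lyz2 (0.529) and C1qb and C1qc (0.517). The least alike were C1qb and Cx3cr1 (−0.669), in which the PE−/− male with 21 counts of Cx3cr1 also has the highest C1qb. Against the mean of the other members, C1qa (0.712), Lyz2 (0.636) and C1qb (0.55) stood highest, and Mrc1 (−0.671), Cx3cr1 (−0.412) and Ptprc (−0.4) were negative. By rank (Spearman) the value of Cx3cr1 was 0.029, while those of Mrc1 and Ptprc were −0.518 and −0.379. Of 19276 other genes, those most like the mean of the members were Cdk17 (0.915), Riok1 (0.901), Tspan4 (0.897), Aoah (0.895) and Bhlhe41 (0.892). Next came Grwd1 (0.882), Anln (0.881), Car5b (0.877), Tsku (0.874) and Map1s (0.872). These are the highest of 19276 values over only 15 libraries, and how high such extremes run among unrelated genes was not tested. Aoah and Car5b had mean levels of only 0.611 and 0.859 CPM.

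**Figure D4:**
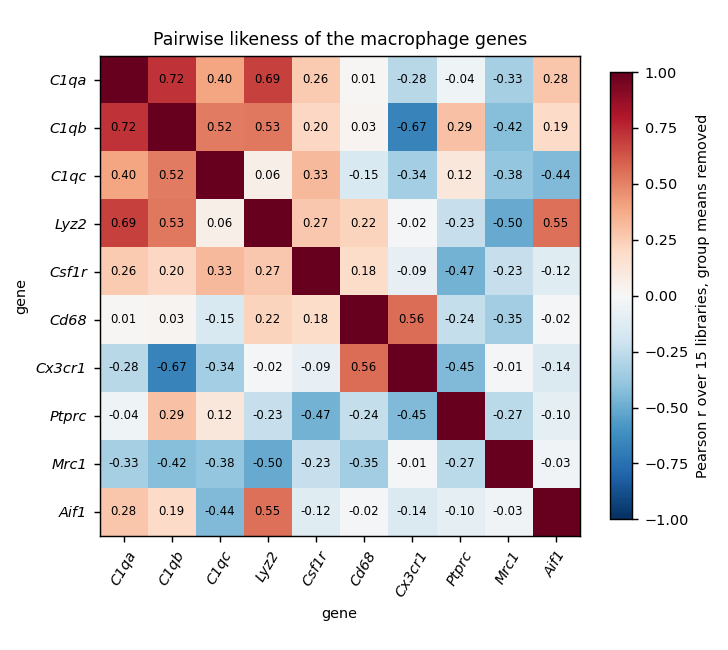
Pearson r between each pair of the 10 macrophage genes over 15 libraries, from log2 CPM with group means removed (red, positive; blue, negative; the diagonal is each gene with itself). C1qa, C1qb and Lyz2 form the red corner, while Mrc1 has no positive value with any other gene.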

How the data were processed

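RNA-seq of whole pituitary glands was analysed in 15 libraries of 4 groups (PE+/− and PE−/− males and females). Per the study's methods, paired reads were trimmed with cutadapt, mapped to mm10 with STAR and counted with featureCounts. The deposited values are estimated counts per gene with no normalization. Their names (assembled loci) and their spacing are those of coverage-based estimates, which the methods do not describe. Among 34309 single-transcript genes, the values 5, 9 and 13 occurred 1.41, 1.16 and 1.07 times as often as the values around them. These peaks lie 4 apart, so about 4 counts were taken to stand for 1 fragment. The authors did not state strand use or the annotation release for these values, so reads of overlapping genes and close copies are uncertain.

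All genes were tested in R 4.3.3 with edgeR 4.0.16 (filterByExpr with a minimum count of 10 and a minimum total of 15, TMM, quasi-likelihood F test, two-sided, Benjamini-Hochberg adjustment, threshold 0.05) on the libraries compared. SE is the log2 fold change divided by the square root of F, and intervals are 95%. CPM used TMM-scaled library sizes, and log2 CPM a prior count of 2. Totals were 12982794 to 30238443 counts, and replicates differed beyond counting noise (chi-square per degree of freedom 17.9 to 57.8). The 95% intervals come from the edgeR fits and include the spread between libraries. The floor of detection and the counting errors in percent cover counting only. All 15 columns matched a sample by name. Scripts were tested on simulated data.

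The members and the 21 other lists (177 genes in all, all found) were chosen with earlier results of these data known. Named beside the members were list genes past the threshold, the list gene with the most counts as an example of level, the 10 genes most like the members, and Nr5a1. Other names (H2-Aa, H2-DMa, H2-Eb1, Cd74, the microglial genes, the ligands, overlapping genes and genes at 0) were chosen after their values were seen. Replicate numbers are shared between groups, but deviations of same-numbered libraries correlated from −0.081 to 0.132, and the numbers were not taken as pairs. Alternatives were DESeq2 1.42.0, its size factors, library totals, no filter, a minimum of 1 CPM, edgeR's likelihood ratio test, counts divided by 4, summed loci, 1 fit on all libraries, a replicate block and leaving out each library. Sorted gonadotropes were not analysed here.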

Additional observations from a re-analysis of the deposited data

Results flagged for a closer look

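A library stood apart from the other 3 of its group, by the gap to its nearest neighbour over the group's range (Dixon's 95% limit), in 3 of 42 groups of 4 libraries. The limit is set to flag about 1 in 20 by chance. That rate is no fair reference here, because the 42 include sums of the same genes. A group with the other 3 libraries at 0, as for Aif1, also passes the limit whatever the value. Csf1r was highest in replicate 3 of the PE+/− females, at 9.91 CPM beside 7.81 to 8.05 CPM in the others, so that the group mean without it is 7.90 ± 0.132 CPM (n = 3) and lies further below that of the PE+/− males. Aif1 was at 1.39 CPM in replicate 2 of the PE+/− males and at 3.28 CPM in replicate 1 of the PE+/− females, with the other 3 libraries of each group at 0. The low Cx3cr1 of replicate 3 of the PE−/− males, 0.984 CPM, did not pass this rule because replicate 2 also lay below the other libraries.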

How the results depend on the processing

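The count of macrophage genes past the threshold stayed 0 in 18 of 18 settings for PE−/− against PE+/− in males, 17 of 17 in females, 17 of 18 for the sexes in PE+/−, 17 of 17 in PE−/− and 24 of 24 for the interaction. The exception was DESeq2 for the sexes in PE+/−, with a count of 1 (Csf1r, −0.70). Of the log2 fold changes of single genes, 147 of 161, 164 of 167, 144 of 161, 164 of 169 and 238 of 239 kept their sign and side of the threshold. In males, Csf1r was 0.012 with library totals and Mrc1 0.081. For the sexes in PE+/−, where both were near 0, Ptprc was −0.0022 with DESeq2 size factors and −0.0012 with no filter, and Cd68 was −0.0090 with DESeq2 size factors, −0.012 with DESeq2, −0.0016 with the likelihood ratio test, −0.0099 with no filter, −0.00021 with counts divided by 4 and −0.0087 in 1 fit on all libraries. The replicate block turned Mrc1 in males to 0.075, Aif1 in females to 1.13 and Cd68 between the sexes in PE+/− to −0.056. With the block Cx3cr1 was −1.27 in males and 1.24 for the sexes in PE−/−, and it changed no call. The labels do not say whether equal numbers pair samples. Same-numbered libraries correlated from −0.081 to 0.132, which cannot decide it, because no value for truly paired libraries is known here.

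Leaving out each library in turn changed no count from 0. It turned the sign of Csf1r (−0.17 to 0.030), C1qb (−0.11 to 0.16), C1qc (−0.081 to 0.17) and Mrc1 (−0.26 to 0.19) in males, Ptprc (−0.54 to 0.064) and Aif1 (−1.26 to 0.48) in females, Ptprc (−0.11 to 0.16) and Cd68 (−0.26 to 0.12) for the sexes in PE+/−, Cx3cr1 (−0.19 to 0.49) and Aif1 (−1.19 to 0.96) for the sexes in PE−/−, and Aif1 in the interaction (−7.03 to 5.84). The cause was not tested. Aif1, Mrc1 and Ptprc had the fewest counts of the members (182, 550 and 834 over the 15 libraries) and so the largest counting errors.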

Other observations

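Among lists of other cells of the gland, T cell genes summed to 7.95 to 11.2 CPM as group means, with Cd3d and Cd3g at 0 in every library, and natural killer cell genes to 1.63 to 3.21 CPM. Mast cell genes summed to 15.9, 24.2, 14.55 and 27.4 CPM in PE+/− males, PE−/− males, PE+/− females and PE−/− females, most of it from Kit, which other cells also make, while Mcpt4 and Ms4a2 were at 0 in every library. Erythroid genes summed to 855 CPM in PE+/− males, 458 in PE−/− males, 1030 in PE+/− females and 532 in PE−/− females, with libraries of the groups overlapping in both sexes. Endothelial genes summed to 187, 108, 158 and 127 CPM in the same order, and to 123 CPM in PE+/− males without replicate 1, which held 379.7 CPM. Over the 21 lists, the genes past the threshold were Lhb, the luteinizing hormone subunit, lower in PE−/− males (log2 fold change −5.03, adjusted p = 0.0132 by edgeR), Lhb, Prl and Col1a2 lower in PE−/− females, and Col1a2, a collagen chain of fibroblasts, higher in females than in males in PE+/− (1.61, adjusted p = 0.00773). Gene examples with the most counts, in PE+/− males, PE−/− males, PE+/− females and PE−/− females, were Ighm of B cells (9.24, 19.3, 8.15 and 16.7 CPM), Rgs5 of pericytes (482.5, 277, 679 and 295 CPM) and Cdh26 of the stem or folliculostellate list (12.5, 21.1, 17.6 and 29.8 CPM), none of which passed the threshold. Plvap of endothelium, also not past the threshold, had 92.02, 36.9, 49.7 and 40.5 CPM, and 27.7 CPM in PE+/− males without replicate 1, so that its direction between the male groups turns with that library.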
